A study of Homo sapiens with 15 samples.

Results

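The NF-kB pathway and the cytokines and chemokines around it were followed as a set of 47 genes, taken by symbol and arranged in 9 roles. The list was chosen with earlier results of these data known. All 47 were among the 60651 genes of the depletion count table, and 45 were among the 23792 genes of the overexpression table, where CXCL5 and SAA1 were not analysed. RNA had been sequenced from 15 libraries whose labels name MDA-MB231, an established line of human breast cancer cells without hormone receptors or HER2 amplification, kept in DMEM with fetal bovine serum and antibiotics. The depletion dataset held 3 CTRL libraries of genotype WT and 3 libraries each of SG1 and SG3, both labelled as a KIF20A knockdown. The overexpression dataset held 3 EV libraries of genotype WT and 3 libraries labelled KIF20A_OE, with a KIF20A overexpression. KIF20A is a kinesin motor protein needed at the end of mitosis, when daughter cells separate. No source used here gives the vectors, promoters and clones behind the groups, or the meaning of SG1 and SG3. The labels do not say whether replicates were separate cultures, and p-values therefore measure only the spread between these libraries, which may be technical.

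NF-kB is a family of dimeric transcription factors built from RELA, RELB, REL and the processed products of NFKB1 and NFKB2. In resting cells inhibitors of the IkB family hold the dimers in the cytoplasm. A kinase complex switched on by TNF, interleukin-1 or Toll-like receptors marks the inhibitors for degradation, and the freed dimers induce cytokines, chemokines, adhesion molecules and survival genes together with their own inhibitors, which closes a feedback loop. A slower branch works through NFKB2 and RELB and is held in check by TRAF2 with the ubiquitin ligases BIRC2 and BIRC3. MDA-MB231 cells are known for high basal NF-kB activity and for secreting interleukin-6 and CXCL8.

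Libraries held 40895819 to 51018667 counts in the depletion dataset and 15971297 to 22182293 recovered fragments in the overexpression dataset. For a gene at 0 the upper limit was taken as 3 counts, or 0.0588 to 0.0734 CPM (per-million counts) or 0.135 to 0.188 FPM (per-million fragments), for counting error only. KIF20A was 154, 171 and 160 CPM in CTRL, 123, 147 and 91.5 in SG1, and 86.3, 60.8 and 79.1 in SG3, and neither group passed the edgeR test against CTRL (adjusted p of 0.913 and 0.33). It was 101, 143 and 124 FPM in EV and 1348, 269 and 896 in the libraries labelled KIF20A_OE. Those 3 libraries also went against their cell line label. The summed level of 6 genes that mark the line (VIM, CD44, ZEB1, AXL, CAV1 and KRT18) was 5050 to 5835 FPM in EV and 532 to 973 in the libraries labelled KIF20A_OE, with all 6 called lower. AXL and CD44, at 811 to 1107 and 523 to 788 FPM in EV, were at 0.75 to 0.811 and 0.125 to 1.23 there. A second list held 5 genes that are low or absent in the line. Their sum was 79.1 to 108.5 FPM in EV and 53.8 to 56.1 in the libraries labelled KIF20A_OE. In pooled fragments, EV first, EPCAM (1550 and 152) and ERBB2 (4163 and 2588) were lower in the latter. CDH1 (16 and 206), PGR (0 and 170) and ESR1 (2 and 10) were higher. CDKN2A and MTAP, neighbours on chromosome 9 chosen for naming after their values were seen, had 0 counts in all EV, CTRL, SG1 and SG3 libraries and 276 to 353 and 22.6 to 24.6 FPM in the libraries labelled KIF20A_OE. Summed leukocyte markers (8 genes, 5 of them measured in the overexpression dataset) were at most 5.41 FPM in that dataset, and PTPRC was at 0 in all 3 libraries labelled KIF20A_OE. Summed fibroblast markers were 25.4 to 66.8 FPM in EV and 80.5 to 102.5 in the libraries labelled KIF20A_OE, and summed endothelial markers 17.6 to 30.7 and 1.12 to 36.5. Of the 3 fibroblast genes tested 2 were called higher and 1 lower. All 3 endothelial genes tested, PECAM1 among them, had negative log2 differences in limma, and 2 were called lower. In pooled fragments, EV first, COL1A1 had 1999 and 4405. PECAM1 had 539 and 811, a pooled rise that its negative log2 difference does not share, so it is not read as a group increase. PDGFRB had 353 and 44, CDH5 306 and 2, and KDR 421 and 17. In that dataset the first principal component held 91.6% of the variance and separated the 2 groups. A difference in the cells and the overexpression of KIF20A therefore cannot be told apart in any value below that compares these groups. In the depletion dataset, CTRL replicate 3 and SG3 replicate 1 lay with the SG1 libraries on the first component (37.6% of the variance).

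Per gene length, in per-million transcripts (TPM), CTRL cells carried more RNA of several secreted factors than of the NF-kB subunits. SAA1, an acute phase protein, came first at 1590 ± 676 TPM (SD, n = 3), followed by the macrophage growth factor CSF1 at 392 ± 64.3, the NF-kB target TNFAIP2 at 388 ± 96.9 and the neutrophil chemokine CXCL8 at 347 ± 53.3. CSF1, TNFAIP2 and CXCL8 did not differ from one another beyond these spreads. RELA, the transactivating subunit of the main dimer, stood at 148 ± 12.4 TPM, NFKB2 at 142 ± 31.6, RELB at 66.6 ± 17.2, NFKB1 at 54.1 ± 4.11 and REL at 3.75 ± 0.132. The feedback inhibitor NFKBIA was one of the steadiest members, at 262 ± 5.13 TPM. CXCL5, CCL20, CCL5, CXCL10 and the prostaglandin synthase PTGS2 lay at 0.0456 to 1.77 TPM. EV libraries, from the other dataset, had the inhibitor TNIP1 first at 278 ± 42.4 TPM, then BIRC2 at 180 ± 38.9, NFKBIA at 170 ± 50.7 and RELA at 135 ± 10.6, with CXCL8 at 45.7 ± 9.32. In the libraries labelled KIF20A_OE RELA came first at 105 ± 1.78 TPM, followed by the inhibitor NFKBIB at 84.3 ± 20.6 and TNIP1 at 82.3 ± 7.64, while CXCL8 was at 0.777 ± 0.673. The datasets were scaled separately and EV was not tested against CTRL. Side by side, IL1A was 36.3 to 44.3 CPM in CTRL and 0.387 to 1.82 FPM in EV, IL6 was 32.4 to 53.9 and 0.628 to 2.86, and PTGS2 was 0.0824 to 0.397 and 12.4 to 43.2.

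**Figure D1:**
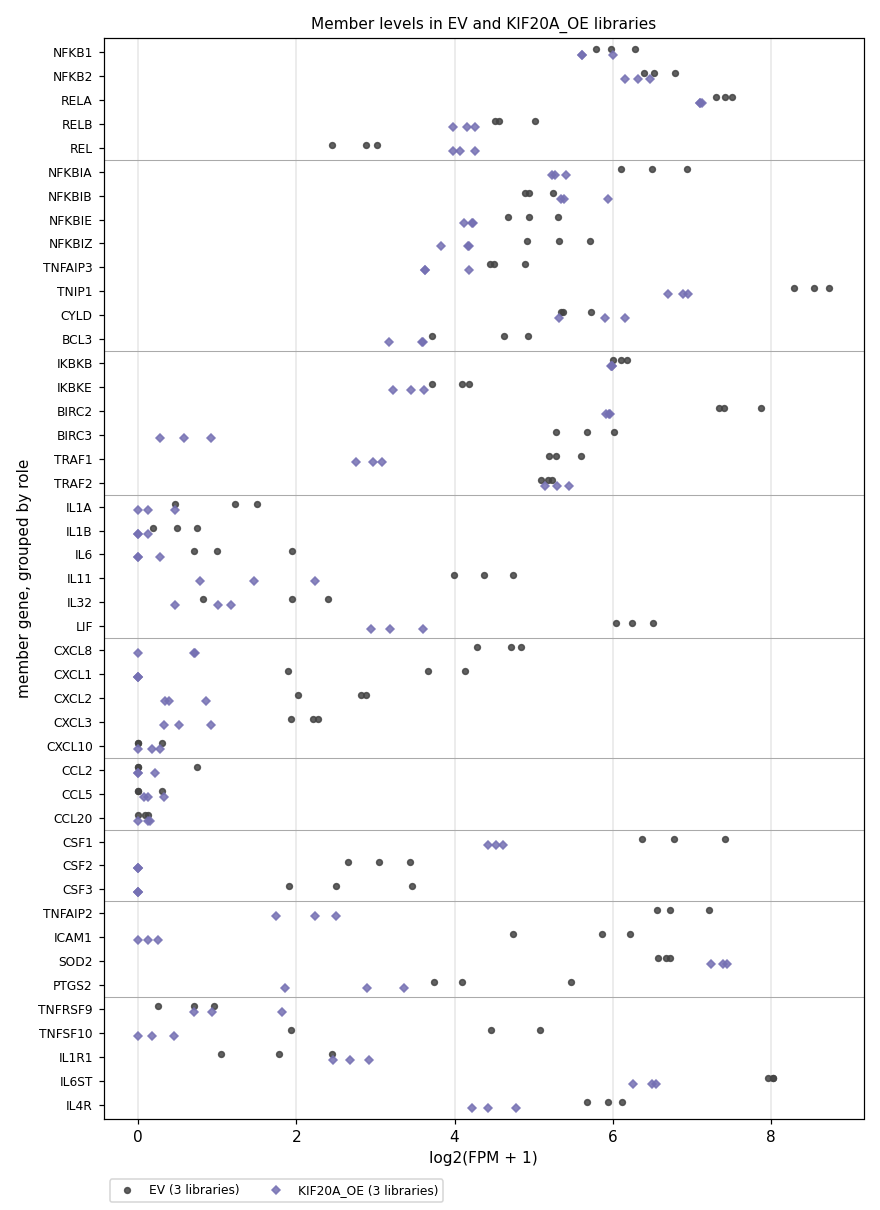
Levels of the 45 measured members in the overexpression dataset, on a log2(FPM + 1) axis, with 1 point per library (circles, 3 EV libraries; diamonds, 3 libraries labelled KIF20A_OE) and lines between the roles. The diamonds of CXCL1, CSF2 and CSF3 lie at 0, and those of ICAM1, BIRC3, TNFAIP2 and CXCL8 lie far to the left of the circles, while the points of NFKB1, NFKB2, IL32, CYLD and TRAF2 overlap between the groups.

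The first comparison asked how the set differed between the libraries labelled KIF20A_OE and EV. Of the 10 secreted interleukins, chemokines and colony stimulating factors of the set that were tested 9 were called lower in the libraries labelled KIF20A_OE, as were 6 of 8 inhibitors and feedback regulators, while REL was called higher. Of the 37 members with a mean of at least 1 FPM, limma on log2(FPM + 1) called 27 lower (73%) and 4 higher, at a Benjamini-Hochberg adjusted p under 0.05, and 6 passed in neither direction. The filter used the mean of all 6 libraries. Members with a mean under 1 FPM in the libraries labelled KIF20A_OE passed it only through EV. Their direction was therefore fixed in advance. These were CXCL1, CXCL2, CXCL3, CXCL8, CSF2, CSF3, IL32, BIRC3, ICAM1 and TNFSF10. All of them but IL32 were called lower and are part of the 27. Of the 9 secreted members called lower, only CSF1, IL11 and LIF are not among them. Over all 15265 genes tested, 23.4% were called lower, 46.2% higher and 69.6% in either direction. The groups did not overlap, being lower in the libraries labelled KIF20A_OE, for 28 members and 25.2% of all genes, and higher for 4 members and 48.9% of all genes. The median log2 difference was -1.44 over the tested members (quartiles -2.62 and -0.30) and 0.37 over all genes. In bulk RNA, fewer cells that express a gene and less RNA per cell cannot be told apart.

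The scale mattered for the smaller differences. With TMM factors on the FPM values the median of all genes moved from 0.37 to 0.04, a shift of 0.34, and the calls over all genes went to 34% higher and 32.6% lower. Among the 37 members 2 (REL and SOD2) were then called higher and 31 lower, the 4 added being NFKB1, NFKB2, IKBKB and IL32. The test of edgeR on the recovered fragments called 2 higher and 32 lower of 39 members, against 33.2% and 30.5% of all genes, and DESeq2 called 2 and 32, against 33.6% and 31.1%. The count of higher members was also 2 without EV replicate 1 and without replicate 3 of those labelled KIF20A_OE (43.6% and 41.7% of all genes).

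**Figure D2:**
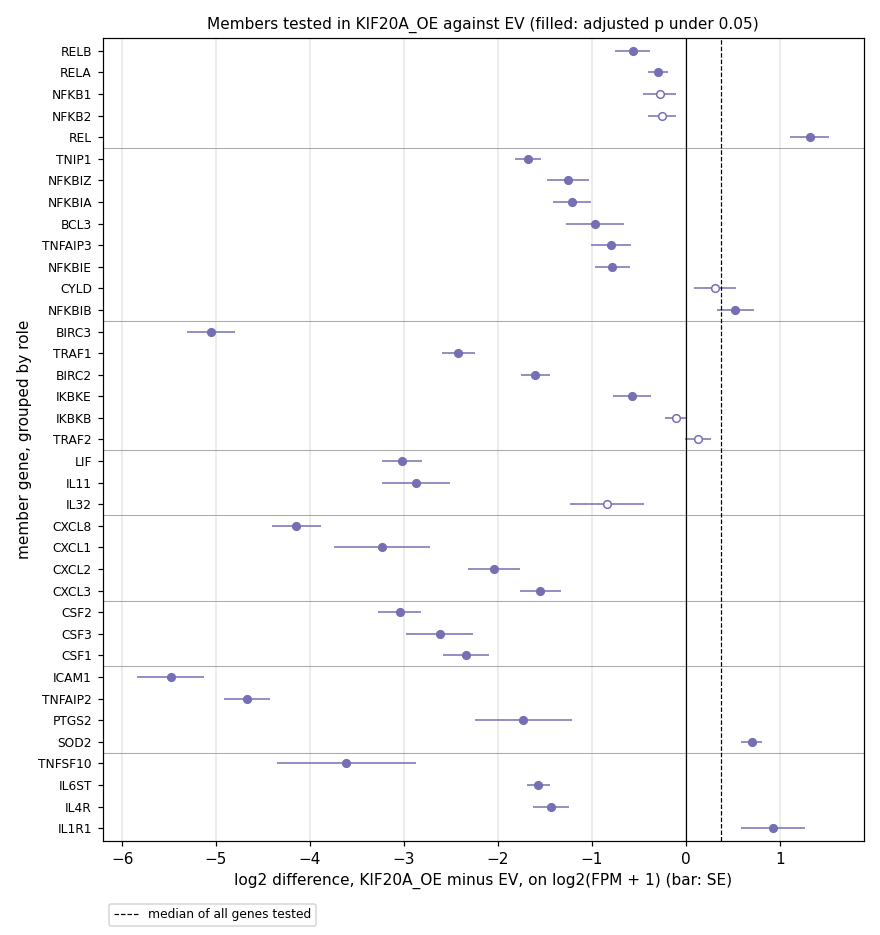
Log2 difference on log2(FPM + 1), libraries labelled KIF20A_OE minus EV, for the 37 tested members grouped by role (bars, SE; filled points, adjusted p under 0.05; dashed line, median of all genes at 0.37). The cytokines, chemokines and colony stimulating factors lie to the left of 0 and the 5 subunits lie near it except REL. TRAF2 and CYLD, which were not called, change sign under TMM scaling.

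Among the 5 subunits 1 was called higher, 2 lower and 2 in neither direction, with a median log2 difference of -0.28. REL, a subunit best known from lymphocytes, was 7.09, 6.38 and 4.47 FPM in EV and 18.1, 15.8 and 14.8 in the libraries labelled KIF20A_OE. Each of the latter lay above each EV library, and the log2 difference was 1.32 ± 0.21 (SE, n = 3 per group, limma adjusted p = 0.000522). RELA was 182, 157 and 171 FPM in EV and 139, 137 and 137 in the libraries labelled KIF20A_OE. The groups did not overlap and the log2 difference was -0.30 ± 0.11 (limma adjusted p = 0.0368), a call lost under 7 of 14 alternatives, among them leaving out EV replicate 1 (adjusted p = 0.104), EV replicate 3 or any 1 of the libraries labelled KIF20A_OE. RELB, the partner of NFKB2 in the slower branch, was 22.7, 21.9 and 31.3 FPM in EV and 18.2, 16.9 and 14.8 in the libraries labelled KIF20A_OE, without overlap. Its log2 difference was -0.57 ± 0.18 (limma adjusted p = 0.0232, and 0.0707 without EV replicate 3 or 0.084 without KIF20A_OE replicate 3). NFKB1 and NFKB2, the precursors of p50 and p52, were not called at -0.28 ± 0.17 and -0.25 ± 0.15 (limma adjusted p = 0.185 and 0.151), but were called lower with TMM factors, at -0.63 and -0.61.

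Of the 8 inhibitors and feedback regulators 6 were called lower and 1 higher, with a median log2 difference of -0.88. NFKBIA, the prototype IkB and itself an NF-kB target, was 122, 67.9 and 89.1 FPM in EV and 37.5, 41.5 and 36.7 in the libraries labelled KIF20A_OE, a log2 difference of -1.21 ± 0.20 (limma adjusted p = 0.000802). TNIP1, which binds the ubiquitin editor TNFAIP3, was 425, 373 and 313 FPM in EV and 122, 103 and 117 in the libraries labelled KIF20A_OE, at -1.68 ± 0.14 (limma adjusted p = 1.47e-05). For both genes all 3 EV libraries lay above the others. NFKBIZ, a nuclear IkB that assists NF-kB at secondary target genes, was 38.8, 29.3 and 51.4 FPM in EV against 17.2, 17 and 13.2. NFKBIE, another cytoplasmic IkB, was 29.6, 24.6 and 38.5 FPM in EV against 16.4, 17.8 and 17.7. TNFAIP3 was 28.6, 21.6 and 20.8 FPM in EV against 11.3, 17.1 and 11.4. In these 3 genes too the groups did not overlap, and the log2 differences were -1.26, -0.78 and -0.80 (limma adjusted p = 0.00105, 0.00529 and 0.00963). BCL3, a nuclear IkB that binds p50 and p52 dimers, was 29.3, 12.1 and 23.8 FPM in EV against 11, 8.02 and 11.1, at -0.97 ± 0.31 (limma adjusted p = 0.0209). EV replicate 2 lay close to the other group, and the call was lost without EV replicate 1, EV replicate 3 or KIF20A_OE replicate 2, with an adjusted p of 0.0585 to 0.0799. NFKBIB, another cytoplasmic IkB, went the other way, from 28.8, 37.1 and 29.7 FPM in EV to 39.6, 60.3 and 40.8, at 0.53 ± 0.19 (limma adjusted p = 0.0381). That call was lost with TMM factors (0.18, adjusted p = 0.441), in the tests on fragments, and without EV replicate 1 or 3 or KIF20A_OE replicate 2 or 3. CYLD, a deubiquitinase that restrains the pathway, overlapped between the groups at 39.8 to 52.1 and 39 to 70.3 FPM and was not called (0.31 ± 0.22).

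The 6 kinases, adaptors and ubiquitin ligases split into 4 called lower and 2 in neither direction. BIRC3, an inhibitor of apoptosis protein and NF-kB target, was 49.9, 37.9 and 63.6 FPM in EV and 0.501, 0.902 and 0.214 in the libraries labelled KIF20A_OE. No library of one group came near the other, at a log2 difference of -5.06 ± 0.26 (limma adjusted p = 7.53e-07). The pooled rate was 88.2 times lower (exact 95% interval 62.3 to 129, counting error only). It was 67.6 times lower without KIF20A_OE replicate 3 and 143 times without KIF20A_OE replicate 2, the ends of the range when 1 library was left out. BIRC2, its paralog next to it on chromosome 11 (102347211 to 102378670 in GRCh38, BIRC3 at 102317450 to 102339403), was 168, 161 and 234 FPM in EV and 60.9, 59.1 and 61.3 in the libraries labelled KIF20A_OE. Its difference was smaller, at -1.60 ± 0.16 (limma adjusted p = 3.32e-05). TRAF1, an adaptor that NF-kB induces, was 35.7, 37.9 and 47.3 FPM in EV against 7.45, 5.77 and 6.85 (log2 difference -2.42 ± 0.18, limma adjusted p = 6.45e-06). TRAF2, the constitutive adaptor of the TNF receptor, was 35.3, 36.6 and 33 FPM in EV against 38.3, 34.5 and 42.5. These ranges overlapped and TRAF2 was not called (0.13 ± 0.14, and -0.22 with TMM factors). IKBKB, the catalytic kinase of the main branch, was 63.4 to 71.2 FPM in EV and 62.2 to 62.5 in the libraries labelled KIF20A_OE, and was not called (-0.11 ± 0.11), while IKBKE, a related kinase of innate immune signalling, was 12.1, 17.2 and 16.1 against 9.89, 8.29 and 11.2. The IKBKE call (-0.57 ± 0.20, limma adjusted p = 0.03) was lost without EV replicate 2 or 3 or KIF20A_OE replicate 1 or 2, at an adjusted p of 0.0679 to 0.093.

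Among the member interleukins, chemokines and colony stimulating factors none was called higher in the libraries labelled KIF20A_OE, although cytokines outside the set, given further on, were. Those that passed the filter only through EV could not have been called higher, and the cytokines named further on could not have been called lower. CXCL8 (chromosome 4, 73740506 to 73743716) was 27.8, 18.6 and 25.3 FPM in EV and 0, 0.631 and 0.642 in the libraries labelled KIF20A_OE. The groups were far apart, with a log2 difference of -4.14 ± 0.26 (limma adjusted p = 2.74e-06) and a pooled rate 52.1 times lower (95% interval 35.4 to 80). CXCL1, a close relative of CXCL8 that uses the same receptor on neutrophils, was 11.7, 2.71 and 16.6 FPM in EV and had 0 fragments in all 3 libraries labelled KIF20A_OE. Against the floor of 3 fragments per library it was at least 64-fold lower (limma log2 difference -3.23 ± 0.51, adjusted p = 0.000651), with EV replicate 2 the lowest of its group. The CXCL1 bound was 44.6-fold without EV replicate 3. CXCL2 was 3.05, 6.38 and 6.06 FPM in EV against 0.313, 0.811 and 0.268, and CXCL3 was 2.81, 3.62 and 3.82 against 0.25, 0.902 and 0.428. Neither gene's groups overlapped, at -2.04 ± 0.28 and -1.55 ± 0.22 (limma adjusted p = 0.000244 and 0.0003). CXCL1, CXCL2 and CXCL3 are near-identical in sequence and no source used here says how shared reads were assigned, so their separate values are uncertain. CXCL10, CCL2, CCL5 and CCL20 were under the 1 FPM filter. CCL2, a monocyte chemokine, was 0, 0.677 and 0 FPM in EV and 0, 0 and 0.161 in the other group, and CCL5, a T cell chemokine, was 0, 0 and 0.235 against 0.25, 0.0902 and 0.0535. Both lay at or near the floor in both groups, so no direction is given.

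LIF, a cytokine that signals through IL6ST, was 65, 90.3 and 74.8 FPM in EV and 8.08, 6.72 and 11.2 in the libraries labelled KIF20A_OE (log2 difference -3.02 ± 0.21, limma adjusted p = 4.38e-06). IL11, of the same cytokine family, was 14.9, 19.6 and 25.7 FPM against 3.69, 0.721 and 1.77 (-2.87 ± 0.37, limma adjusted p = 0.00016). In both the lowest EV library was several times the highest of the other group. IL32, a cytokine found in primates, was 2.86, 0.773 and 4.29 FPM in EV against 0.376, 1.26 and 1.02, with overlap through EV replicate 2, and was not called (-0.84 ± 0.39, limma adjusted p = 0.0866; -1.04 and 0.048 with TMM factors). IL6, the acute phase interleukin, was under the 1 FPM filter at 2.86, 0.628 and 1 FPM in EV and 0, 0 and 0.214 in the libraries labelled KIF20A_OE, without overlap. On the recovered fragments it was called lower by edgeR (log2 difference -4.65 ± 1.05, adjusted p = 0.0049) and by DESeq2 (-4.78 ± 1.27, adjusted p = 0.000395). In these tests IL6 passed the filter on low counts only through EV, so its direction was fixed in advance. The pooled rate was 21.8 times lower (95% interval 8.22 to 81.7), or 11.3 times without EV replicate 1. Without the filter limma called IL6, IL1A and IL1B lower, where it called 17.8% of 23792 genes lower. The 3 colony stimulating factors were all called lower. CSF1 was 170, 81.7 and 109 FPM in EV and 23.5, 20.4 and 21.9 in the libraries labelled KIF20A_OE (-2.34 ± 0.24, limma adjusted p = 4.82e-05). CSF2, the granulocyte and macrophage factor, was 9.85, 7.25 and 5.29 FPM in EV, and CSF3, the granulocyte factor, was 2.76, 4.64 and 10 FPM. Neither had a fragment in any library labelled KIF20A_OE, which made them at least 46.3-fold and 36-fold lower against the floor (limma adjusted p = 7.35e-06 and 0.000226). The CSF2 bound was 38.9-fold without EV replicate 1, and the CSF3 bound was 23-fold without EV replicate 3.

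Of the 4 other target genes tested 3 were called lower and 1 higher. ICAM1, an adhesion molecule for leukocytes, was 57.5, 25.7 and 73.4 FPM in EV and 0.188, 0.0902 and 0 in the libraries labelled KIF20A_OE. That was 2988 fragments against 5, a pooled rate 579 times lower (95% interval 248 to 1783, and 388 to 1040 times when 1 library was left out, the last without KIF20A_OE replicate 1; limma log2 difference -5.48 ± 0.36, adjusted p = 3.03e-06). TNFAIP2, a TNF-induced gene, was 105, 93.1 and 148 FPM in EV against 3.69, 4.64 and 2.36 (-4.67 ± 0.25, limma adjusted p = 9.42e-07). PTGS2 was 43.2, 12.4 and 16.1 FPM in EV against 9.27, 2.61 and 6.42. The PTGS2 groups did not overlap but varied widely (-1.73 ± 0.52, limma adjusted p = 0.0171, and 0.0576 without KIF20A_OE replicate 2). SOD2, the mitochondrial superoxide dismutase and a long-known NF-kB target, went the other way, from 94.5, 105 and 101 FPM in EV to 151, 173 and 167. It was called higher at 0.70 ± 0.11 (limma adjusted p = 0.00062) and, with TMM factors, at 0.35 (adjusted p = 0.0252).

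Among the receptors and TNF family members, TNFSF10, the death ligand TRAIL, was 21.1, 2.8 and 32.9 FPM in EV and 0.125, 0 and 0.375 in the libraries labelled KIF20A_OE. EV replicate 2 lay far below the other EV libraries, and the difference was still called (-3.61 ± 0.74, limma adjusted p = 0.00329). IL6ST, the signal transducer shared by interleukin-6, interleukin-11 and LIF, was 260, 248 and 259 FPM in EV against 92.6, 75.3 and 89.6 (-1.57 ± 0.12, limma adjusted p = 7.87e-06), and IL4R, a subunit of the interleukin-4 receptor, was 50.1, 60.5 and 68.4 against 26.4, 17.7 and 20.5 (-1.44 ± 0.19, limma adjusted p = 0.000182). In both the groups were separate. IL1R1, the signalling receptor of interleukin-1, was 2.43, 1.06 and 4.47 FPM in EV against 6.57, 4.51 and 5.41. It was called higher (0.93 ± 0.34, limma adjusted p = 0.0374), although EV replicate 3 nearly reached the other group. The call was lost under 9 of 13 alternatives, TMM factors among them (0.66, adjusted p = 0.123). TNFRSF9, a costimulatory receptor, was below the filter at 0.19 to 0.941 FPM in EV and 0.626 to 2.52.

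The promoters of the members were searched for 2 spellings of the NF-kB site, GGAATTTCC and GGG followed by any 2 bases and TTTCC, on both strands (the spellings overlap, so 1 stretch can match both). The windows, of 250 bases before to 50 after the annotated start, came from RefSeq on GRCh38.p14 and matched 38 of the 47 members. GGAATTTCC was found for 13 of these (34.2%) and for 153 of 27305 genes (0.56%), and the longer spelling for 19 (50%) and 635 (2.33%). At least 1 spelling was found for 22 members (57.9%) and 739 genes (2.71%). Since the members were picked as pathway and target genes, this share describes the list and is not a result of these libraries. Among members with a match 11 were called lower in the libraries labelled KIF20A_OE, 2 higher (REL and NFKBIB), 4 in neither direction and 5 were not tested. Among members without a match the counts were 11 lower, 2 higher, 1 in neither direction and 2 not tested. The 200 bases before the start are given 5′ to 3′ for 4 of the members called lower and, for contrast, for REL, which was called higher. The starts are those of RefSeq, which for CXCL8, ICAM1 and REL lie inside the gene spans of GENCODE 29, the annotation behind the gene coordinates given for CXCL8, BIRC2 and BIRC3. The windows lie at chr4:73740369-73740568 (plus strand) for CXCL8, chr4:73869193-73869392 (plus strand) for CXCL1, chr19:10270920-10271119 (plus strand) for ICAM1, chr14:35404750-35404949 (minus strand) for NFKBIA, chr2:60881374-60881573 (plus strand) for REL. Capitals mark the matched spelling as it reads on the gene's own strand.
CXCL8: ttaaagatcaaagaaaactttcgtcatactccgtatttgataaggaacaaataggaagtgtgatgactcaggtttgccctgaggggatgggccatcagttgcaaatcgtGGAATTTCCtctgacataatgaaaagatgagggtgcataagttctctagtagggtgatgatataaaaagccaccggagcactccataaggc
CXCL1: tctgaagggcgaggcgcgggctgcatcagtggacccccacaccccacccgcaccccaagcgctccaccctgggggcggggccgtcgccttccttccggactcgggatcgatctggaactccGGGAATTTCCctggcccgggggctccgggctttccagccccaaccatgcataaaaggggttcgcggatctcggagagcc
ICAM1: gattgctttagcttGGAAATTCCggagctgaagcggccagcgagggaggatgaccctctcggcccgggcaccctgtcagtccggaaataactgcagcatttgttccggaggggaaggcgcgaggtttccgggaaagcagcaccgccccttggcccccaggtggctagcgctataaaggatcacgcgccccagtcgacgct
NFKBIA: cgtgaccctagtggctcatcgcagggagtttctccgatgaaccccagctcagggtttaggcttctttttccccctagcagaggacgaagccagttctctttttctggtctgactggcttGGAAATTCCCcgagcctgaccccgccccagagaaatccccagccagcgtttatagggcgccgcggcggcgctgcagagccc
REL: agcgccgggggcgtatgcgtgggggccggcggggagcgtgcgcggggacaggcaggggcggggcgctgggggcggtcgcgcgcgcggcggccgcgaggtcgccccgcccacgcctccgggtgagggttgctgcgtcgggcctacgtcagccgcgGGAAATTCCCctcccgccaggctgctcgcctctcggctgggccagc

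In CXCL8 the match lay 91 to 83 bases before the start, in CXCL1 79 to 70, in ICAM1 186 to 178, in NFKBIA 81 to 72 and in REL 46 to 37. CXCL1, CXCL2 and CXCL3 carried the same GGGAATTTCC letters within 1 base of the same distance. NFKBIA and REL carried the same GGAAATTCCC letters, yet NFKBIA was called lower and REL higher in the libraries labelled KIF20A_OE. A match is a description of the letters in this window and not evidence of binding.

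**Figure D3:**
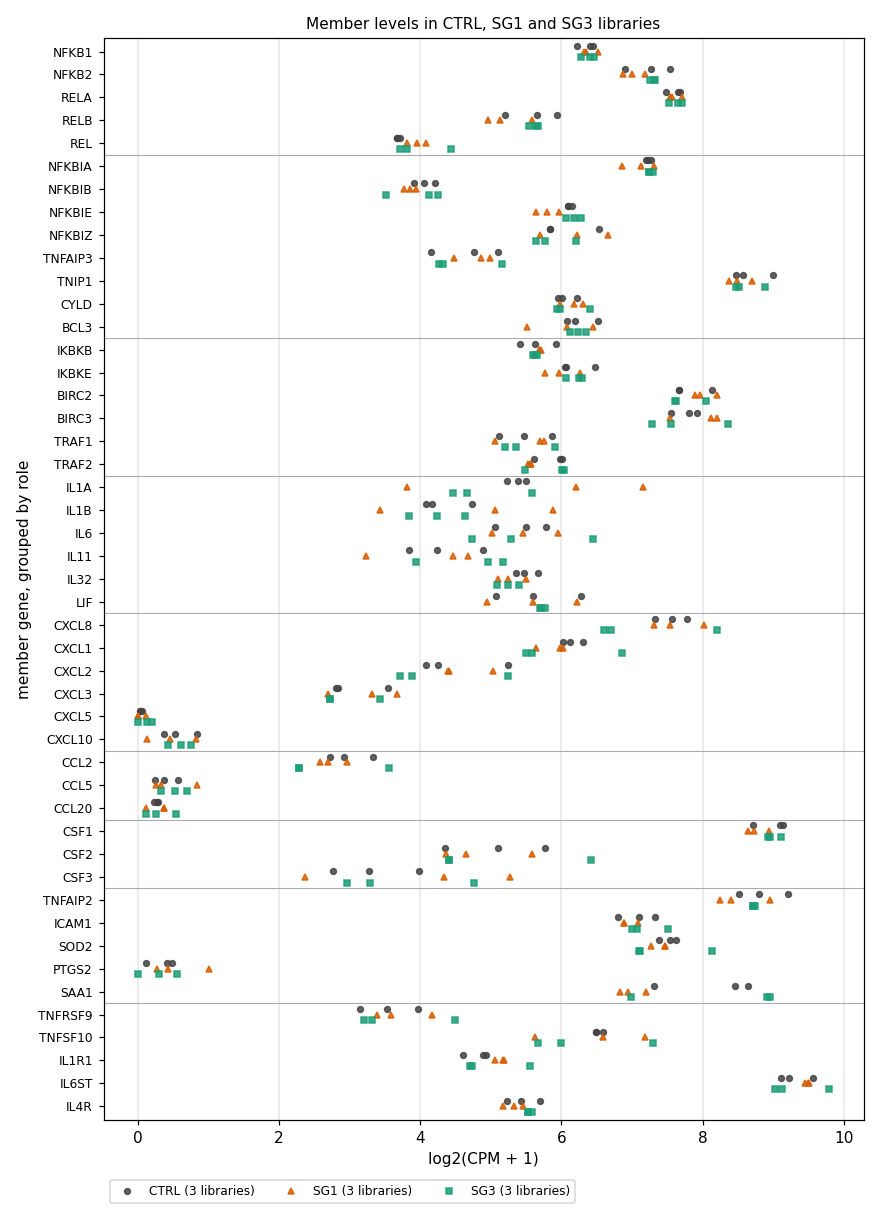
Levels of the 47 members in the depletion dataset, on a log2(CPM + 1) axis, with 1 point per library (circles, CTRL; triangles, SG1; squares, SG3; 3 libraries each). The 3 groups overlap for most members, and the points within a group spread widest for IL1A, CSF3, IL1B, CSF2 and SAA1.

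The other comparisons asked whether the set differed between the depletion groups and CTRL. No member passed the threshold: edgeR's quasi-likelihood test called 0 of 46 members and 0% of all 16786 genes in SG1 against CTRL, in SG3 against CTRL (0%), in SG1 against SG3 (0%) and in the average of both depletion groups against CTRL (0%). DESeq2 and limma-voom also called 0 members in each, with at most 0.0238% of all genes called higher and 0.0179% lower. At an unadjusted p under 0.05 the counts were 2 members and 4.59% of all genes for SG1 against CTRL, 0 members and 1.19% for SG3 against CTRL, 3 members and 4.74% for SG1 against SG3, and 0 members and 1.76% for the mean contrast. Median log2 differences of the members were 0.01, 0.00, -0.08 and -0.01 in that order. SG1 and SG3 were compared with the same CTRL libraries.

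SAA1, induced in the acute phase response, was lowest in SG1. It was 399, 351 and 158 CPM in CTRL, 113, 146 and 122 in SG1, and 126, 480 and 497 in SG3. All SG1 libraries lay below all CTRL libraries, but CTRL replicate 3 and SG3 replicate 1, the libraries that lay with SG1 on the first component, were close to SG1 for this gene too. The log2 difference was -1.26 ± 0.40 for SG1 against CTRL and -1.53 ± 0.40 for SG1 against SG3 (edgeR adjusted p = 0.913 and 0.861). Without those 2 libraries the differences were -1.58 and -1.98. The libraries were singled out because they resembled SG1, for SAA1 too, so the calls made without them follow from that choice and no test is read from them. The same holds for SG3 replicate 1 alone, without which SAA1 was called in SG1 against SG3 (edgeR adjusted p = 0.0374, with 0% of 17236 genes called higher and 0.029% lower). SAA1 has a near-identical neighbour, SAA2, so the assignment of its reads is uncertain.

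NFKBIE followed the same order with a smaller range, at 69.7, 67.1 and 67.4 CPM in CTRL, 61.3, 49 and 54.4 in SG1 and 65.8, 76.6 and 71.3 in SG3. SG1 overlapped neither of the other groups, at log2 differences of -0.31 ± 0.13 from CTRL and -0.38 ± 0.13 from SG3 (edgeR adjusted p = 0.913 and 0.861). TRAF2 was 63.4, 61.9 and 47.9 CPM in CTRL, 46.3, 46.1 and 45 in SG1 and 43.8, 64.7 and 63.7 in SG3, so that CTRL replicate 3 and SG3 replicate 1 again sat beside SG1 (SG1 against CTRL -0.33 ± 0.17). REL was 11.7, 12.2 and 11.7 CPM in CTRL, 13.1, 15.8 and 14.5 in SG1 and 20.5, 12.1 and 13 in SG3. SG1 lay above CTRL throughout, whereas SG3 overlapped CTRL with replicate 1 the highest (SG3 against CTRL 0.36 ± 0.20, mean contrast 0.33 ± 0.18, edgeR adjusted p = 1 and 1). IL1R1 had 29.5, 28.7 and 23.4 CPM in CTRL, 35.4, 32.2 and 35.2 in SG1 and 45.8, 25 and 25.7 in SG3. Its SG3 difference of 0.25 ± 0.21 turned to -0.074 without SG3 replicate 1. IL32 was 39.9, 49.7 and 43.1 CPM in CTRL, 44, 33.3 and 36.9 in SG1 and 33.1, 41.3 and 36.9 in SG3, with overlap throughout (-0.25 ± 0.16 for SG3 and -0.23 ± 0.13 for the mean contrast). In all, the groups did not overlap for 2 members higher and 4 lower in SG1 against CTRL (4.96% and 7.21% of all genes), for 0 and 0 in SG3 against CTRL (2.28% and 2.38%), for 1 and 3 in SG1 against SG3 (6.26% and 4.55%), and for 0 and 0 in the mean contrast (0.536% and 0.441%).

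**Figure D4:**
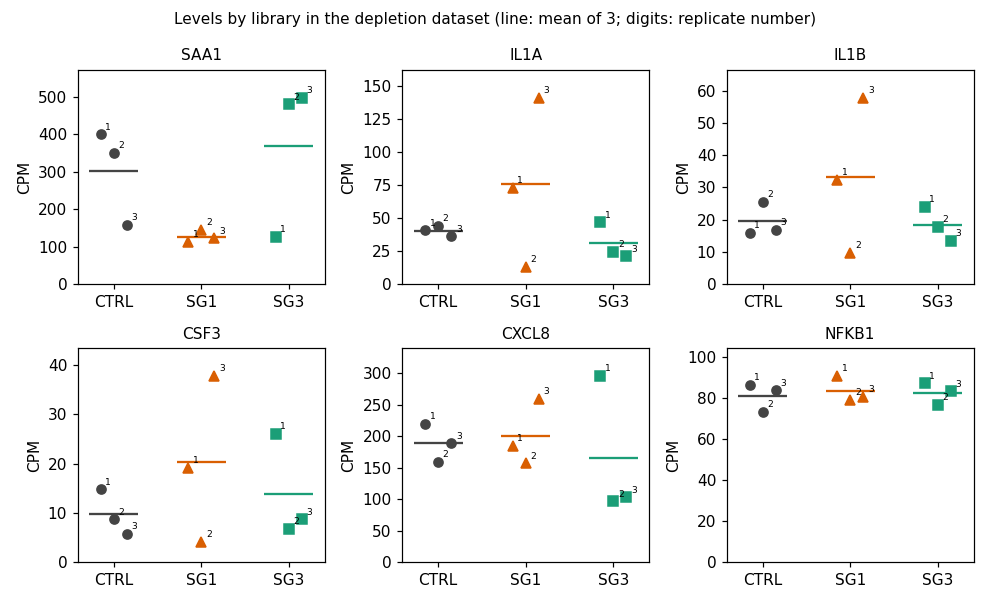
CPM by library for 6 members in CTRL, SG1 and SG3, on linear axes from 0 (lines, mean of 3 libraries; digits, replicate numbers). SAA1 is low in all SG1 libraries, CTRL replicate 3 and SG3 replicate 1. IL1A, IL1B and CSF3 are highest in SG1 replicate 3 and lowest in SG1 replicate 2, and NFKB1 is level in all 9 libraries.

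Several secreted members varied more between the replicates of a group than between groups. IL1A, an interleukin-1 released from damaged cells, was 40.9, 44.3 and 36.3 CPM in CTRL but 72.9, 13 and 141 in SG1, a 10.9-fold range between replicates, and 47, 24.3 and 21.2 in SG3. IL1B, its neighbour on chromosome 2 and a secreted inflammatory cytokine, was 16, 25.5 and 16.9 CPM in CTRL, 32.4, 9.79 and 57.8 in SG1 and 23.9, 17.8 and 13.4 in SG3. CSF3 was 14.8, 8.71 and 5.81 CPM in CTRL, 19.2, 4.14 and 37.8 in SG1 and 26, 6.77 and 8.73 in SG3. All 3 genes put the SG1 replicates in the same order, with replicate 3 highest and replicate 2 lowest. CXCL8 was 220, 159 and 189 CPM in CTRL, 185, 157 and 259 in SG1 and 296, 96.6 and 103 in SG3. CSF2 was 53.2, 33.3 and 19.4 CPM in CTRL, 24, 19.7 and 46.9 in SG1 and 84.2, 20.1 and 20.2 in SG3. IL6 was 53.9, 32.4 and 44 CPM in CTRL, 31.4, 61 and 43 in SG1 and 86.4, 25.5 and 38.2 in SG3. In SG3 all 3 of these genes were highest in replicate 1 and well below it in the other libraries. The same library was the highest of SG3 for TNFSF10 (156, 63 and 49.7 CPM), SOD2 (279, 136 and 138 CPM) and CCL2 (10.8, 3.88 and 3.86 CPM).

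Over the 9 libraries the SD of log2(CPM + 1) within a group had medians of 0.19 in CTRL, 0.14 in SG1 and 0.18 in SG3 over all genes, and of 0.24, 0.24 and 0.30 over the 46 tested members. The median of the 5 subunits was 0.12, 0.13 and 0.09. Single subunits varied more, with RELB at 0.37 in CTRL and 0.32 in SG1, NFKB2 at 0.32 in CTRL and REL at 0.39 in SG3. The 3 colony stimulating factors were at 0.61, 0.63 and 0.96, the interleukins with LIF at 0.36, 0.70 and 0.50, and the CXC chemokines at 0.24, 0.37 and 0.76. RELA was 200, 204 and 178 CPM in CTRL, 208, 188 and 185 in SG1 and 183, 209 and 201 in SG3, and NFKB1 was 86.4, 73.3 and 83.8, 90.8, 79 and 80.5, and 87.2, 76.7 and 83.4. Their ranges overlapped in all 3 groups. CSF1 was 565, 544 and 418 CPM in CTRL, 493, 401 and 422 in SG1 and 488, 553 and 496 in SG3. TNIP1 was 511, 381 and 355 CPM in CTRL, 416, 331 and 358 in SG1 and 473, 354 and 364 in SG3. Both varied within groups as much as between them. BIRC2 was 203, 203 and 279 CPM in CTRL, 295, 248 and 236 in SG1 and 265, 197 and 195 in SG3, and IL6ST was 552, 600 and 760, 700, 719 and 726, and 886, 521 and 560. For BIRC2 and IL6ST, CTRL replicate 3 and SG3 replicate 1 were the highest of their groups and lay at or above most SG1 libraries. CCL2, the highest CC chemokine, was 9.09, 5.59 and 6.55 CPM in CTRL and 4.97, 6.8 and 5.46 in SG1, which overlapped. The part of that library split in the spread of the secreted members was not tested.

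**Figure D5:**
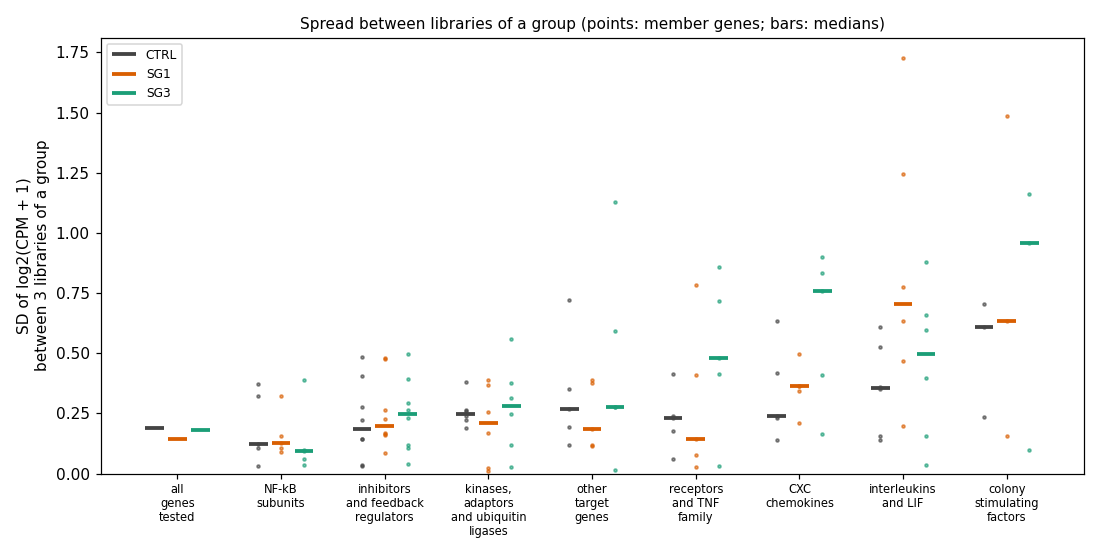
SD of log2(CPM + 1) between the 3 libraries of a group, by role (points, tested member genes; bars, medians; CC chemokines, with few counts, are left out). Bars of the NF-kB subunits lie at 0.09 to 0.13, under those of all genes, and bars of the colony stimulating factors at 0.61 to 0.96.

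The rest of the pathway was read from 3 further lists. None of their genes was called in a depletion comparison. In the libraries labelled KIF20A_OE against EV, 11 of 42 tested signalling genes were called higher and 19 lower, 10 of 24 other cytokines, chemokines and receptors higher and 12 lower, and 5 of 24 other NF-kB target genes higher and 16 lower, against 46.2% and 23.4% of all genes. With TMM factors the counts were 5 and 24 of 42, 8 and 12 of 23, and 1 and 17 of 24. The genes named next were chosen after their values were seen, from those called in each direction. LTBR and TLR4 passed the filter of 1 FPM only through EV. IL18R1, IL6R, CXCL16, TSLP and CXCL12 passed it only through the libraries labelled KIF20A_OE. The direction of these genes was therefore fixed in advance, and the counts above include them. LTBR, the lymphotoxin receptor that feeds the slower branch, was 57.7, 53.5 and 59.8 FPM in EV and 0, 0 and 0.107 in the libraries labelled KIF20A_OE (log2 difference -5.81 ± 0.17). MYD88, the adaptor of Toll-like and interleukin-1 receptors, was 64.2, 54.5 and 67.4 FPM against 0.939, 2.52 and 1.61 (-4.59 ± 0.24). TLR4 was 34.9 to 79.6 FPM in EV and listed at 0 in the 3 others. TRAF3, an adaptor that restrains the slower branch, was 42.9, 45.2 and 52.4 FPM in EV against 81.9, 84.6 and 89.9 (0.86 ± 0.13), and IL18R1, a receptor of interleukin-18, was 0, 0 and 0.118 against 9.96, 7.21 and 10.8 (3.30 ± 0.20). The kinase subunit CHUK, at 24.6, 25.1 and 26.5 FPM against 57.7, 55.3 and 52.4, and TAB1, which activates the kinase MAP3K7, at 32.4, 32.8 and 27.6 against 82.3, 77.4 and 78.4, were higher, at 1.09 ± 0.12 and 1.34 ± 0.13, where the median of all genes was 0.37. The receptor IL6R went from 0.286, 0.29 and 0.118 FPM to 31.1, 7.17 and 17.7, while its partner IL6ST was called lower. The ligand IL6, under the filter here, was called lower on fragments, where it passed only through EV. Cytokines called higher included CXCL16, a chemokine made as a membrane protein, at 1.29, 0.435 and 0.823 FPM in EV against 8.39, 8.39 and 11.1 (2.49 ± 0.23). TSLP, an epithelial cytokine, had 0 fragments in EV and 5.07, 5.36 and 6.53 FPM in the libraries labelled KIF20A_OE, at least 36.6-fold higher. CXCL12, the ligand of CXCR4, was 0, 0 and 0.176 FPM in EV against 10.8, 0.857 and 14.3, with KIF20A_OE replicate 2 far below the other libraries of its group (2.72 ± 0.73).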

How the data were processed

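RNA-seq values of 9 depletion and 6 overexpression libraries, grouped by their labels, were used. The depletion files held whole-number read counts per gene as the authors deposited them. The deposited overexpression table held normalized values that the labels call FPKM but that summed to the same per-million total in each library and carried no length term, so they were read as CPM-type values (per-million fragments, FPM), from which whole fragments were recovered for all values within a tolerance of 0.001. The submitters' processing notes list hg38 and the tools STAR 2.7.3a, Trim Galore 0.6.4, limma 3.50.3, featureCounts and Subread 1.6.3. No source used here gives strandedness or the treatment of multimapping reads, so reads of overlapping, antisense and near-identical genes are uncertain.

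Counts were tested with edgeR 4.0.16 (TMM, filterByExpr, quasi-likelihood, all 9 libraries in 1 fit), and FPM with limma 3.58.1 (trend, robust) on log2(FPM + 1), leaving out genes whose mean was under 1 FPM. The added 1 makes differences of low genes look smaller. Adjusted p-values are Benjamini-Hochberg over all genes, with a threshold of 0.05. Both fits were tried on simulated data in which only a small set of genes differed. The overexpression groups differed far more broadly, so the simulation does not cover that comparison. TPM were computed from GENCODE 29 exon lengths. R 4.3.3 and DESeq2 1.42.0 served for alternatives. Values were given per library for called members, the 3 members with the smallest p in each depletion comparison and the member highest per length in each role. The members and lists were chosen with earlier results of these data known. Replicate numbers did not pair the libraries. Intervals and floors cover counting error only.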

Additional observations from a re-analysis of the deposited data

How the results depend on the processing

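In the depletion dataset the count of members called was 0 in all 4 comparisons, and it moved only as follows. Limma-voom with sample quality weights called 1 member in SG1 against CTRL (SAA1), with 0.0894% of all genes called higher and 0.268% lower. It called 7 members in SG1 against SG3, with 4.74% of all genes higher and 5.31% lower. Without a filter on low counts edgeR called 4 (IL1A, IL1B, CSF3 and SAA1) in SG1 against CTRL, 3 in SG1 against SG3 and 1 (CSF3) in the mean contrast, with at most 0.0836% of 31103 genes called higher and 0.209% lower in these. Without both CTRL replicate 3 and SG3 replicate 1 the counts were 2 and 6 for SG1 against CTRL (1.32% of all genes higher, 3.16% lower) and SG1 against SG3 (2.93% and 6%), after a choice of libraries that follows the outcome. Leaving out 1 library gave 0 to 1 in SG1 against SG3, the 1 being SAA1 without SG3 replicate 1. The IL1R1 difference in SG3 against CTRL turned to -0.11 with quality weights, -0.18 without both libraries and -0.074 without SG3 replicate 1, the low end of a range of -0.074 to 0.40 when 1 library was left out. The causes were not tested. In the overexpression dataset the count of members called higher was 2 with TMM factors, with edgeR and with DESeq2 on fragments (34%, 33.2% and 33.6% of all genes). When 1 library was left out, 2 to 3 members were called higher and 23 to 27 lower. The shares of all genes were then 41.7% to 46.1% higher and 21.6% to 22.6% lower. Of the 31 called members 24 kept their call under every alternative that gave a value. The replicate numbers did not pair the libraries (correlations of -0.22 to 0.43 in the depletion dataset and 0.01 to 0.06 in the other). A fit with the replicate number as a block called 0 members in each depletion comparison, and 4 higher and 26 lower in the overexpression dataset (45.8% and 23.2% of all genes). CXCL10, CCL2, CCL5 and CCL20 were at or near the limit of the overexpression libraries' depth.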

Other observations

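Of the 37 members tested in both datasets, 15 (40.5%) had opposite signs in the mean depletion contrast and in the overexpression contrast, against 6844 of 12997 genes (52.7%). No gene was called in the mean depletion contrast, so its signs are uncertain. The overexpression signs were taken on the FPM scale, where the median of all genes was 0.37. The count files also held more even than odd numbers, with 62.9% to 68% of counts from 10 to 50 even in each depletion library.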
